A study of Mus musculus with 27 samples.

Results

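The presynaptic and synaptic vesicle genes described here are 44 genes taken by symbol from a list of proteins of the nerve terminal, and all 44 were found among the 24293 gene symbols of the RNA tables. By role they comprise 6 calcium sensors, 9 vesicle membrane proteins and synapsins, 8 proteins of the fusion machinery, 11 Rab3 and active zone proteins, 6 endocytic proteins, 2 vesicular glutamate transporters and 2 neurexins. RNA was sequenced from wild-type C57BL/6 mouse cells of postnatal day 1 cortex in 5 groups of 3 libraries. Control microglia and microglia transduced with ND1 were each taken on day 2 and on day 7, with no statement of the event from which days are counted, and cortical neurons in culture, with no day given, served as a reference. ND1, which the labels do not spell out, was carried by lentivirus beside a virus for M2rtTA (a doxycycline-responsive activator), with polybrene; the cells were then kept in Neurobasal with B27, BDNF, GDNF and NT3 and received doxycycline 1 time, whereas neurons grew in Neurobasal with B27. The medium, virus and doxycycline status of control microglia are not stated, so an effect of ND1 and an effect of these treatments cannot be told apart. CpG methylation was read by bisulfite sequencing in 1 control and 1 ND1 library, with no day given. Since no label states that replicates came from separate cultures, p-values measure only the spread between these libraries.

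At a nerve terminal, vesicles loaded with transmitter are held by synapsins, delivered by Rab3, and docked and primed at the active zone by scaffolds such as RIM, bassoon and piccolo together with Munc13. Fusion is driven by the SNARE proteins syntaxin, SNAP25 and synaptobrevin, clamped by complexin and triggered by calcium-bound synaptotagmin, after which NSF and SNAP adaptors take the SNARE complexes apart and dynamin, amphiphysin, endophilin and synaptojanin retrieve the membrane. Microglia are the resident macrophages of the brain, form no synapses, and use broadly expressed relatives of several of these proteins for secretion and phagocytosis.

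FPKM, a level corrected for the length of the transcript and the number of fragments mapped in the library, summed to between 428966 and 739688 per library, and 10706 to 12089 genes per library reached 1 FPKM. Neurod1, a neurogenic transcription factor gene whose transcripts the tables do not divide into construct and endogenous copies, was at 3073, 3454 and 3337 FPKM in ND1 day 2 libraries and at 1.04, 1.15 and 1.08 in control day 2 libraries (log2 change 10.62, SE 0.10, limma adjusted p = 2.22e-16). The sum of 10 microglial markers was 14461 to 15415 FPKM in control day 7, 621 to 851 in ND1 day 7 and 22.4 to 26.1 in neuron libraries, although the marker Tmem119 stood at only 1.08 ± 0.106 FPKM (SD, n = 3) in control day 7. The sum of 8 neuronal markers was 16.8 to 21.7, 3468 to 3497 and 2246 to 2466 FPKM in the same order. Astrocyte markers (8 genes) summed to 74.7 to 78.4 FPKM in control day 7, 37.0 to 37.8 in ND1 day 7 and 22.6 to 23.7 in neurons; oligodendrocyte markers (9 genes) to 22.3 to 24.2, 9.49 to 9.99 and 10.6 to 11.6, with Mog at 0 in control day 7 and Sox10 at 0 in neurons. In bulk RNA, fewer cells of a type and less RNA per cell cannot be told apart.

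In the ND1 day 2 libraries most neuron-high transcripts stood at a similar proportion of the ND1 day 7 level. Over 641 genes that are high in neurons and ND1 day 7 and are not among the 44, the day 2 level stood at a median of 19.4%, 16.3% and 15.4% of the day 7 level in replicates 1, 2 and 3, above control. Counts and tests that use the day 2 libraries are therefore given as measured and again after these shares of the mean ND1 day 7 profile were subtracted and the remainder rescaled. The shares were set from such genes, so the subtraction itself brings any gene at the same proportion close to its control level. Calls at day 2 after the subtraction are thus nearly fixed in advance for such genes. Differences between the days after it come close to the day 7 effect alone. These values are no separate evidence on day 2 levels, and their SEs and p-values take the subtracted share as exact. The cause of the similar proportion was not tested.

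Most of the presynaptic genes were nearly silent in control microglia, and most rose in ND1 cells at day 7. At day 7, 42 of the 44 genes reached a mean of 1 FPKM in ND1 cells and 33 reached 10 FPKM, against 16 and 5 in control cells and 44 and 35 in neurons. The summed FPKM of the 44 genes was 374 ± 10.9 in control day 7, 1927 ± 10.4 in ND1 day 7 and 3586 ± 71.6 in neurons (SD, n = 3 each). The sum was 368 ± 7.51 in control day 2 and 629 ± 33.7 in ND1 day 2, which became 365 ± 5.93 with the day 7 share subtracted.

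Different genes made up these sums. In control day 2 microglia a single gene, Syngr1, gave 64.8% of the 44-gene sum, followed by Bin1 with 8.19%, Synj1 with 8.01% and Nsf with 6.79%. In ND1 day 7 libraries Rab3a gave 11.4%, Vamp2 9.49% and Syt4 8.28%, and in neurons Vamp2 gave 11.6%, Rab3a 10.8% and Syp 8.05%. The top contributors in control cells were thus a synaptogyrin, endocytic proteins and the general fusion ATPase, and in ND1 cells and neurons they were vesicle and fusion proteins.

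A gene was called higher or lower where limma gave an adjusted p under 0.05 and a log2 change of at least 1. Changes are differences of log2(FPKM + 1), so those of genes near 0 FPKM are understated. All 44 genes were among the 13599 tested, Sv2c through its neuron libraries alone and Vamp1 not without them. Most of the 44 passed the filter only through ND1 or neuron libraries, which favours calls of higher. With the control groups alone 15 passed, and with only the groups compared 42 passed at day 7 and 36 at day 2. At day 7, 38 of 44 genes were called higher in ND1 than in control cells and 1 lower, where 25.7% of all tested genes rose and 24.5% fell. The median log2 change was 3.95 for the 44 genes and 0.04 for all tested genes. At an unadjusted limma p under 0.05, 40 of the 44 were higher and 3 lower at day 7, where 46.7% and 44.4% of all tested genes were. At day 2, 31 rose and 0 fell, where 9.1% of all tested genes rose and 0.618% fell, with medians of 1.83 and -0.04. At an unadjusted p under 0.05, 40 of the 44 were higher and 3 lower at day 2, where 32.7% and 37.9% of all tested genes were. With the day 7 share subtracted, limma called 0 of 44 genes at day 2, where 0.727% of 13616 tested genes rose and 0.301% fell, and the median log2 change of the 44 was 0.01; at an unadjusted p under 0.05, 7 were then higher and 6 lower, where 10.9% and 42.2% of all tested genes were. In neurons against control day 7, 40 rose and 1 fell, where 28.1% and 25.2% of all tested genes did. These shares of all tested genes also apply to the counts by role below. All ND1 day 7 libraries lay above all control day 7 libraries for 40 of the 44 genes (46.6% of all tested genes). They lay below them for Syngr1, Synj1 and Vamp1 (44.3% of all tested genes). Groups that do not overlap were thus the usual case at day 7.

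**Figure D1:**
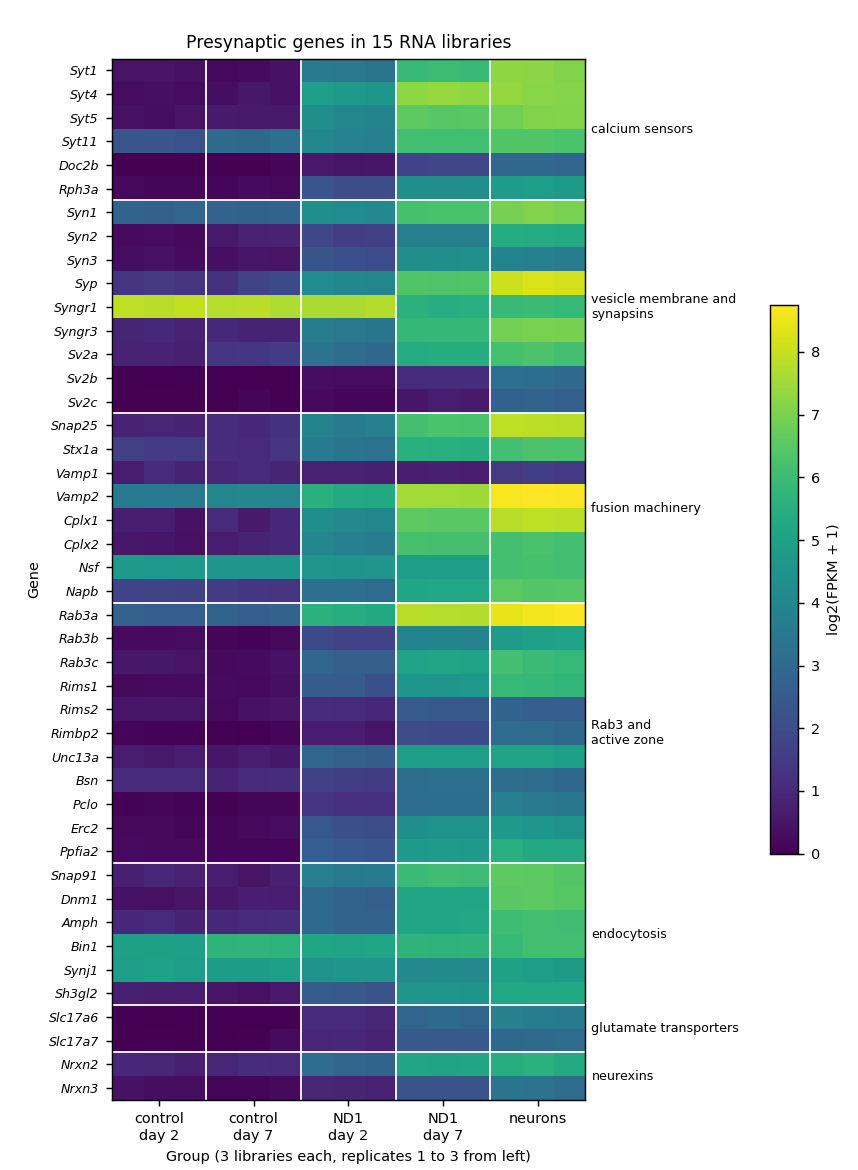
Levels of the 44 genes (rows, grouped by role) in each of the 15 RNA libraries (columns), as log2(FPKM + 1) by colour. Syngr1 is bright in the control libraries and dims in ND1 day 7, whereas the rows around it go from dark in control to bright in ND1 day 7 and neurons; Nsf, Bin1 and Synj1 stay at similar colours throughout.

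Among the calcium sensors, 6 of 6 genes rose at day 7 and 5 of 6 at day 2, or 0 at day 2 with the day 7 share subtracted. Syt1, the calcium sensor of fast release (GRCm38.p6 chromosome 10, 108497650 to 109010980), was at 0.151, 0.205 and 0.339 FPKM in control day 7 libraries, at 59.9, 63.6 and 60.8 in ND1 day 7 libraries and at 153, 151 and 136 in neurons. The 3 groups did not overlap, and the ND1 libraries stood between the others (ND1 against control day 7, log2 change 5.67, SE 0.07, limma adjusted p = 1.72e-16). Syt4, a synaptotagmin found on dense-core vesicles, was at 0.261, 0.469 and 0.350 FPKM in control day 7 and at 152, 169 and 158 in ND1 day 7. It made the largest rise of the 44 genes (log2 change 6.88, SE 0.08, limma adjusted p = 1.60e-16), and its neuron libraries, at 164, 146 and 142 FPKM, overlapped those of ND1 cells.

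Syt5, another calcium-binding synaptotagmin, went from 0.522 ± 0.0352 to 90.9 ± 3.22 FPKM at day 7, and the Rab3 effector rabphilin, Rph3a, from 0.140 ± 0.0367 to 19.4 ± 0.254 FPKM (SD, n = 3). Syt11, a synaptotagmin that does not bind calcium, was already at 7.28 ± 0.772 FPKM in control day 7 and reached 67.5 ± 0.203 FPKM in ND1 day 7. Its log2(FPKM + 1) change of 3.05 (SE 0.07, limma adjusted p = 1.37e-14) was smaller than those of Syt5 and Rph3a. Doc2b, a high-affinity calcium sensor linked to spontaneous release, had the smallest log2(FPKM + 1) change of the group, a scale that understates changes near 0. It went from 0, 0 and 0.0968 FPKM in control day 7 to 2.36, 2.58 and 2.60 in ND1 day 7. Every ND1 library lay above every control library, but the level stayed low; neurons reached 6.43, 6.50 and 6.26 FPKM.

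Of the vesicle membrane proteins and synapsins, 7 of 9 rose at day 7, Syngr1 fell and Sv2c was not called. Syp, which encodes synaptophysin, a major vesicle membrane protein, was at 1.43, 2.49 and 2.95 FPKM in control day 7, at 81.8, 80.4 and 82.5 in ND1 day 7, and at 274, 305 and 287 in neurons. ND1 libraries were well above control and well below neurons, with no overlap. Syngr3, a neuronal synaptogyrin, showed the largest log2(FPKM + 1) change of the group (0.885 ± 0.0768 to 56.0 ± 0.171 FPKM), at 4.92 (SE 0.07, limma adjusted p = 2.48e-16).

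The synapsins, phosphoproteins that tether the reserve pool, all rose: Syn1 from 5.72 ± 0.114 to 74.1 ± 0.396 FPKM, Syn2 from 0.703 ± 0.163 to 12.4 ± 0.0277 and Syn3 from 0.365 ± 0.0817 to 19.5 ± 0.276 FPKM (SD, n = 3 each). In control cells Syn1 was thus the best expressed of the synapsins. Its reads may be shared: Syn1 overlaps Araf, a kinase gene at 38.4 FPKM in control day 7, 64.0 in ND1 day 7 and 123 in neurons, and the strand setting of the counting is not stated. Syn3 spans Timp3 and overlaps Fbxo7, and Syn2 spans Timp4, so their levels carry the same uncertainty; Fbxo7 went the opposite way, from 28.6 to 4.37 FPKM.

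Of the SV2 glycoproteins, which regulate vesicle priming, Sv2a and Sv2b rose and Sv2c was not called. Sv2a, the binding site of the antiepileptic levetiracetam, went from 1.68 ± 0.245 to 41.0 ± 0.580 FPKM, and Sv2b from 0.00602 ± 0.00589 to 1.21 ± 0.0135 FPKM, a log2 change of 1.14 (SE 0.05, limma adjusted p = 1.62e-11). Sv2c, a paralog used by botulinum toxin as a receptor, was at 0, 0.103 and 0.0223 FPKM in control day 7 and at 0.448, 0.602 and 0.555 in ND1 day 7. The groups did not overlap, but the log2 change of 0.56 (SE 0.05) was under the threshold of 1. With a pseudocount of 0.1 FPKM, Sv2c was called higher (log2 change 2.22, limma adjusted p = 5.58e-07). Neurons were at 5.64, 5.96 and 5.28 FPKM.

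Syngr1, a synaptogyrin of the vesicle membrane (chromosome 15, 80091334 to 80119501), was the only one of the 44 genes called lower in ND1 than in control cells. Its FPKM was 238, 229 and 248 in control day 2, 221, 230 and 201 in control day 7, 200, 199 and 213 in ND1 day 2 and 48.3, 42.9 and 45.4 in ND1 day 7. ND1 day 7 libraries lay far below the other microglial groups and below neurons, which were at 58.4, 61.0 and 57.5 FPKM. The log2 change at day 7 was -2.23 (SE 0.06, limma adjusted p = 3.93e-14), and that of neurons against control day 7 was -1.86 (SE 0.06, limma adjusted p = 2.44e-13). At day 2 the log2 change was -0.22 (SE 0.06, limma adjusted p = 0.00334), which did not reach the threshold, and it was -0.01 with the day 7 share subtracted. The fall in Syngr1 went with the fall of the summed microglial markers given above; their part in the result was not tested.

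The promoters of Syngr1 and Syn2 show the contrast between a gene that microglia transcribe and a gene with a CpG-rich and a CpG-poor start. The RefSeq windows of GRCm38.p6 run from 250 bases before the start site to 50 bases after it; CG dinucleotides are in capitals. The Syngr1 window (chr15:80091084-80091383, plus strand) holds 38, the upstream Syn2 window (chr6:115134652-115134951, plus strand) 21 and the downstream Syn2 window (chr6:115238744-115239043, plus strand) 5. Over all windows of this length in the table the median is 7, and over the 46 windows of 34 of these genes it is 16.5.
Syngr1: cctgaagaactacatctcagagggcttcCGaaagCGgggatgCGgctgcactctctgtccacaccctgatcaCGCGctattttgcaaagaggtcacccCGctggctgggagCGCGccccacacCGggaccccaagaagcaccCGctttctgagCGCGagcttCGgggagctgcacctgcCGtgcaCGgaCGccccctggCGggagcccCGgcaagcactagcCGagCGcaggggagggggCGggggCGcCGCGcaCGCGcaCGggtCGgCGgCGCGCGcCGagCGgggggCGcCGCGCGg
Syn2, upstream start: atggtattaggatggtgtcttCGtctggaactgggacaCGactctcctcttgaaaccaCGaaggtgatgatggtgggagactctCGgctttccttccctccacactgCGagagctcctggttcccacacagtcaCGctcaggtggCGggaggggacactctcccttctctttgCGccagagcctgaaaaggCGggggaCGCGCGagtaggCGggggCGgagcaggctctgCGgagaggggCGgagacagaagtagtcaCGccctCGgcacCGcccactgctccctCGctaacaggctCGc
Syn2, downstream start: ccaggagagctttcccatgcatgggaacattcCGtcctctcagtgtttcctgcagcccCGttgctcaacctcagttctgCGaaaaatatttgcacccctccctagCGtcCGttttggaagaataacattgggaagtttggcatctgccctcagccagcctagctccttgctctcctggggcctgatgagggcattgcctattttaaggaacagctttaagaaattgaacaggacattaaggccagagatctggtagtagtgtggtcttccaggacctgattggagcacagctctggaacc

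Of the fusion machinery genes, 6 of 8 rose at day 7, with Nsf and Vamp1 not called; at day 2, 6 of 8 rose as measured and 0 with the day 7 share subtracted. Vamp2, which encodes synaptobrevin, the vesicle SNARE (chromosome 11, 69088528 to 69092381), was at 15.3, 15.6 and 15.6 FPKM in control day 7, at 183, 185 and 181 in ND1 day 7 and at 401, 431 and 411 in neurons. Among the SNARE genes of the 44 it had the highest level in control microglia, and the groups did not overlap (log2 change 3.48, SE 0.05, limma adjusted p = 3.29e-16). Snap25, the plasma membrane SNARE (chromosome 2, 136713439 to 136782428), was at 1.14, 0.989 and 1.43 FPKM in control day 7, at 71.5, 77.0 and 75.3 in ND1 day 7 and at 243, 234 and 227 in neurons. Its log2(FPKM + 1) change over control was larger than that of Vamp2 (5.12, SE 0.07, limma adjusted p = 3.25e-16), from a lower control level. In FPKM, Vamp2 gained more.

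Stx1a, which encodes syntaxin, went from 1.27 ± 0.202 to 44.3 ± 1.44 FPKM at day 7. The complexins, which clamp and promote fusion, had the largest log2(FPKM + 1) changes of the group. Cplx1 changed by 5.64 (SE 0.11, limma adjusted p = 3.04e-15), from 0.875 ± 0.286 to 91.9 ± 1.69 FPKM, and Cplx2 went from 0.785 ± 0.175 to 71.6 ± 0.894 FPKM. Napb, a brain-enriched SNAP adaptor, went from 1.67 ± 0.209 to 36.0 ± 1.51 FPKM (SD, n = 3). The corresponding ATPase gene Nsf, used by every cell, was at 23.3, 22.6 and 23.7 FPKM in control day 7 and 29.0, 28.9 and 29.1 in ND1 day 7. The groups did not overlap, but the log2 change of 0.31 (SE 0.03) stayed under the threshold; neurons were at 70.1, 73.1 and 69.8 FPKM. Vamp1, a synaptobrevin of spinal cord and hindbrain terminals, was at 0.927, 1.06 and 0.877 FPKM in control day 7, at 0.665, 0.713 and 0.643 in ND1 day 7 and at 1.73, 2.11 and 1.76 in neurons, and was low in every library.

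All 11 Rab3 and active zone genes rose at day 7, and 8 of them at day 2 as measured, or 0 with the day 7 share subtracted. Rab3a, the GTPase of vesicle delivery (chromosome 8, 70754703 to 70758608), was at 6.02, 5.34 and 5.86 FPKM in control day 7, at 226, 218 and 215 in ND1 day 7 and at 355, 391 and 419 in neurons. It had the highest ND1 day 7 level of the 44 genes and a log2 change of 5.03 (SE 0.08, limma adjusted p = 6.24e-16). Its paralogs were lower: Rab3b went from 0.0955 ± 0.0420 to 14.2 ± 0.196 FPKM and Rab3c from 0.237 ± 0.0906 to 33.4 ± 1.71 FPKM.

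Among active zone scaffolds, liprin-alpha gene Ppfia2 went from 0.108 ± 0.0130 to 25.9 ± 0.949 FPKM, by log2 4.60 (SE 0.07, limma adjusted p = 4.97e-16), the RIM gene Rims1 from 0.212 ± 0.0606 to 23.6 ± 0.635 FPKM, and Erc2, an ELKS-family scaffold, from 0.165 ± 0.0504 to 20.7 ± 1.08 FPKM (SD, n = 3). The smaller changes were those of Rimbp2 (RIM-binding protein; log2 change 1.92, SE 0.06), Rims2 (2.12, SE 0.07) and Bsn (bassoon; 2.16, SE 0.08), each called. Bsn was at 0.774, 1.13 and 1.20 FPKM in control day 7, at 8.01, 8.08 and 8.12 in ND1 day 7 and at 7.89, 7.61 and 6.62 in neurons, so that each ND1 library was above each neuron library. Pclo, which encodes piccolo (chromosome 5, 14514906 to 14863465), was at 0.0299, 0.0798 and 0.0938 FPKM in control day 7 and at 7.75, 7.93 and 7.93 in ND1 day 7.

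Unc13a, the Munc13 gene that primes vesicles (chromosome 8, 71624125 to 71671774), was at 0.445, 0.579 and 0.462 FPKM in control day 7, at 29.3, 29.1 and 29.1 in ND1 day 7 and at 31.8, 32.5 and 29.4 in neurons. ND1 libraries stood close under the neuron libraries (log2 change of ND1 day 7 against neurons -0.10, SE 0.07, limma adjusted p = 0.196). Unc13a overlaps Colgalt1, a collagen glycosyltransferase gene at 59.9 FPKM in control day 7 and 16.6 in ND1 day 7, so its counting is uncertain, though the overlapping gene went the other way. The promoters of Pclo (chr5:14514668-14514967, plus strand) and Unc13a (chr8:71671708-71672007, minus strand) are shown because the former is the least methylated active zone promoter in control microglia and the latter holds the only match, among the 46 windows, to paired parts of the binding element of REST, a repressor of neuronal genes outside neurons. In the former, capitals mark its 35 CG dinucleotides; in the latter, they mark the 21-base match, which reads in the reverse orientation and starts 8 bases after the start site.
Pclo: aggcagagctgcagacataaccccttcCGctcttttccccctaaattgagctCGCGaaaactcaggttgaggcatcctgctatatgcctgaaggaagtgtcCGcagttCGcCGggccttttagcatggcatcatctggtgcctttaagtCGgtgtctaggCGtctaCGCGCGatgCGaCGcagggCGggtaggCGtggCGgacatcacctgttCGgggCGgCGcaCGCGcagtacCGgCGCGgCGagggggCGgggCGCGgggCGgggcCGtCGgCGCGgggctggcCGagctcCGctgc
Unc13a: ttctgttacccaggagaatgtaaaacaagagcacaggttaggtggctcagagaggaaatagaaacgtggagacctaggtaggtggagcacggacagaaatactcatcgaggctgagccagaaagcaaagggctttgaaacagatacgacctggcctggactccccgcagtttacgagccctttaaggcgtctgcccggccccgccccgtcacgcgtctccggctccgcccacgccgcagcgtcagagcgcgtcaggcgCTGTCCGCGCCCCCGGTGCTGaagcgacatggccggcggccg

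The endocytic genes split into 4 that rose at day 7 and 2 that were not called. Snap91, which encodes the clathrin adaptor AP180 of nerve terminals, was at 0.570, 0.382 and 0.719 FPKM in control day 7, at 62.2, 65.7 and 63.7 in ND1 day 7 and at 94.0, 91.5 and 84.1 in neurons. The groups did not overlap (ND1 against control, log2 change 5.39, SE 0.09, limma adjusted p = 5.76e-16). The neuronal dynamin gene Dnm1 went from 0.590 ± 0.0989 to 34.6 ± 0.218 FPKM, the amphiphysin gene Amph from 1.09 ± 0.115 to 35.2 ± 0.745 and the endophilin gene Sh3gl2 from 0.396 ± 0.103 to 22.5 ± 0.258 FPKM (SD, n = 3).

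Bin1 and Synj1 were expressed in every group. Bin1, a broadly expressed amphiphysin relative, was at 51.3, 52.1 and 49.9 FPKM in control day 7 and at 51.3, 49.0 and 50.9 in ND1 day 7. These libraries overlapped (log2 change -0.02, SE 0.04), whereas neurons were at 60.3, 68.4 and 67.0. Synj1, which encodes the lipid phosphatase synaptojanin, was at 26.8, 26.7 and 29.6 FPKM in control day 7 and at 16.2, 17.3 and 16.6 in ND1 day 7. Every ND1 library was lower, with a log2 change of -0.70 (SE 0.06) that missed the threshold; neurons, at 31.3, 28.3 and 26.3 FPKM, overlapped the control libraries.

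Both glutamate transporter genes and both neurexin genes rose at day 7. Slc17a6, the vesicular glutamate transporter typical of subcortical and early neurons, was at 0.00755, 0.00780 and 0 FPKM in control day 7, at 6.23, 7.18 and 6.20 in ND1 day 7 and at 12.1 ± 0.882 (SD, n = 3; lowest 11.4, highest 13.1) in neurons. Slc17a7, the transporter typical of mature cortical neurons, was at 0, 0.0469 and 0.187 FPKM in control day 7, at 4.46, 4.41 and 4.51 in ND1 day 7 and at 6.75, 7.19 and 7.64 in neurons. In ND1 day 7 libraries as in neurons Slc17a6 was above Slc17a7 per length. The presynaptic adhesion gene Nrxn2 went from 1.06 ± 0.136 to 34.3 ± 1.11 FPKM, by log2 4.10 (SE 0.09, limma adjusted p = 7.71e-15), and Nrxn3 from 0.114 ± 0.0456 to 3.75 ± 0.0678 FPKM (SD, n = 3).

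Of 42 further neuronal presynaptic genes, 35 were expressed enough to be tested. At day 7, 27 rose, 6 were not called and 2 fell (median log2 change 2.35), where 25.7% of all tested genes rose and 24.5% fell. At day 2, 15 rose and 0 fell as measured, where 9.1% and 0.618% of all tested genes did. With the day 7 share subtracted, 0 were called at day 2, where 0.727% of all tested genes rose and 0.301% fell. Among the larger rises at day 7 were those of the Munc18-binding adaptor gene Apba2 (log2 change 4.99, SE 0.07) and the endophilin gene Sh3gl3 (4.71, SE 0.08). The 2 that fell were the liprin-alpha gene Ppfia4 (-1.60, SE 0.07) and the tomosyn gene Stxbp5 (-1.06, SE 0.05), with limma adjusted p of 1.1e-11 and 9.4e-11. Stxbp5 was also the 1 gene of this list that was lower in neurons than in control day 7.

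Of 34 broadly used relatives of the same families, 33 were tested. At day 7, 19 fell, 13 were not called and 1 rose (median log2 change -1.38), where 24.5% of all tested genes fell and 25.7% rose. At day 2, 0 fell and 1 rose as measured, where 0.618% and 9.1% of all tested genes did. With the day 7 share subtracted, 0 were called at day 2. The largest falls at day 7 were those of the endosomal SNARE gene Vamp8 (455 ± 13.6 to 25.1 ± 3.48 FPKM; log2 change -4.14, SE 0.09), Bin2 (68.2 ± 2.03 to 3.25 ± 0.693; -4.04, SE 0.09), Syngr2 (107 ± 3.74 to 7.37 ± 1.38; -3.71, SE 0.09) and Snap23 (73.0 ± 2.52 to 5.73 ± 0.705; -3.46, SE 0.07). The 1 that rose at both days as measured was the scaffold gene Erc1 (2.52 ± 0.435 to 19.9 ± 0.0320 FPKM at day 7). In neurons against control day 7, 19 of these genes fell and 2 rose, where 25.2% and 28.1% of all tested genes did.

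For 19 pairs of a presynaptic gene and a broadly used relative, the share of the former in the summed FPKM of the pair was computed in each library. Its mean was higher in ND1 day 7 than in control day 7 in 19 of 19 pairs. Snap25 made 1.60 ± 0.295% of the Snap25 and Snap23 sum in control day 7, 17.6 ± 2.04% in ND1 day 2, 92.9 ± 1.04% in ND1 day 7 and 99.3 ± 0.0588% in neurons (SD, n = 3 each). Vamp2 against Vamp8 went from 3.29 ± 0.127% in control day 7 through 8.17 ± 0.725% in ND1 day 2 to 88.0 ± 1.47% in ND1 day 7, Syp against Sypl from 7.97 ± 2.90% through 46.3 ± 3.04% to 95.2 ± 0.178%, and Unc13a against Unc13d, the Munc13 of haematopoietic cells, from 9.37 ± 0.691% through 64.7 ± 3.82% to 99.2 ± 0.0564%. With the day 7 share subtracted, the ND1 day 2 shares became 0.815 ± 1.41% for Snap25, 2.24 ± 0.0125% for Vamp2, 12.004 ± 0.405% for Syp and 17.0 ± 2.27% for Unc13a.

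Other families kept more of the broadly used member in ND1 cells. Dnm1 reached 60.9 ± 0.911% of the Dnm1 and Dnm2 sum in ND1 day 7 against 83.5 ± 0.204% in neurons, Snap91 50.8 ± 0.341% against 63.3 ± 0.938% with Picalm, and Napb 41.1 ± 1.66% against 54.6 ± 2.49% with Napa. Erc2 made 51.0 ± 1.33% with Erc1 and Sh3gl2 47.0 ± 0.893% with Sh3gl1, against 56.0 ± 0.554% and 57.9 ± 2.04% in neurons. In other pairs the listed gene started from a higher share. Syngr1 made 66.9 ± 1.05% with Syngr2 in control day 7 and 86.2 ± 1.57% in ND1 day 7, although both genes fell. Bin1 made 42.8 ± 1.26% and 94.0 ± 1.09% with Bin2, and Synj1 87.6 ± 0.163% and 94.8 ± 0.152% with Synj2. Rph3a made 73.3 ± 13.5% with Rph3al in control day 7, where both were near 0 (0.140 and 0.0531 FPKM), and 99.3 ± 0.226% in ND1 day 7. These shares are descriptions without a test, and members of a pair can share reads where their sequences are alike.

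**Figure D2:**
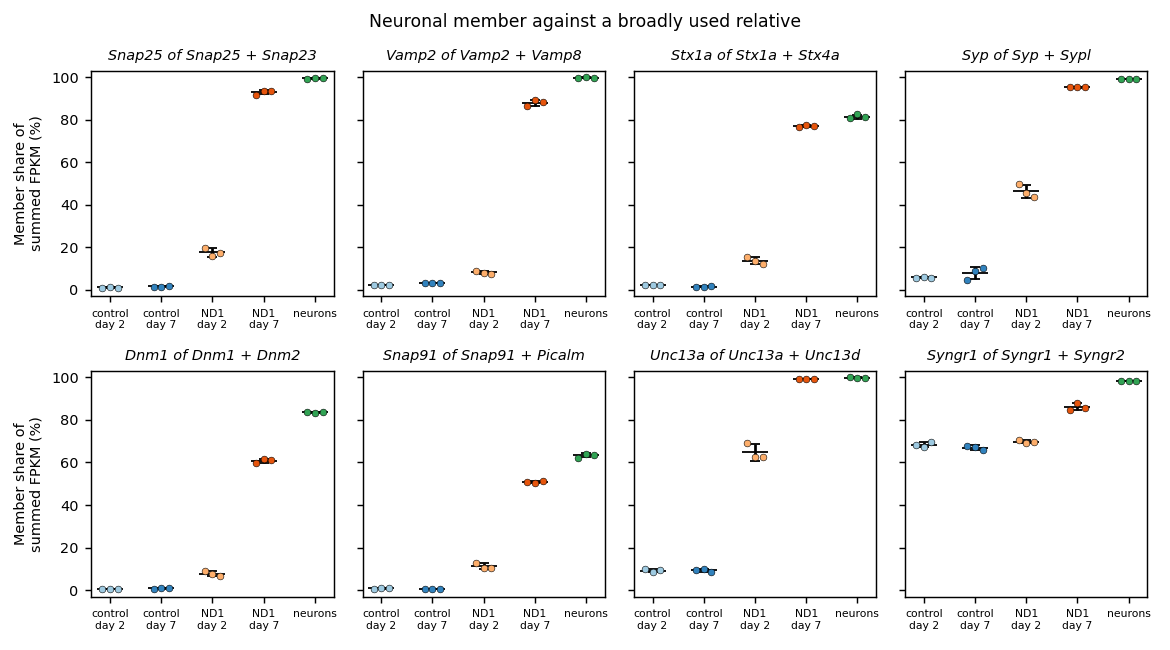
Share (%) of the presynaptic gene in the summed FPKM of a pair with a broadly used relative, for 8 of the 19 pairs; points are libraries, bars the mean and SD (n = 3). The Snap25 share is 1.60% on average in control day 7 and 92.9% in ND1 day 7, and the Syngr1 share starts at 66.9% in control day 7.

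At day 2 the rise of 29 of the 44 genes was a nearly uniform fraction of the day 7 rise. These genes were at 10 FPKM or more in ND1 day 7 and at least 5 times the control day 7 level. The fraction was not computed for the others, among which Nsf was lower in ND1 than in control cells at day 2 and higher at day 7. For the 29 genes the day 2 rise (ND1 minus control, in FPKM) was set against the day 7 rise. The median was 17.3%, and the 29 values ran only from 15.4% for Amph to 18.7% for Stx1a. Syt4 was at 16.3%, Snap25 at 16.3%, Rab3a at 17.6%, Vamp2 at 18.4% and Syp at 18.6%. By library, the median was 20.1%, 16.6% and 15.3% in ND1 day 2 replicates 1, 2 and 3, a wider span than that of the 29 genes. For 675 neuron-high genes outside the 44 the median was 17.1%, with an interquartile range of 16.2% to 17.7%, a 5th to 95th percentile range of 13.5% to 19.2% and extremes of -592% and 271%.

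By role the medians were 17.3% for calcium sensors, 17.8% for vesicle membrane proteins and synapsins, 18.2% for fusion machinery, 17.1% for Rab3 and active zone genes and 16.7% for endocytosis. Those of vesicle membrane and fusion genes lay just above the interquartile range of the other neuron-high genes, and the other 3 lay within it. The day 2 changes of Syt4 (log2 change 4.45, SE 0.08, limma adjusted p = 7.48e-14), Syt5 (3.70, SE 0.09) and Cplx1 (3.53, SE 0.11) were the largest of the 44. With the day 7 share subtracted they became -0.30, 0.35 and 0.74, none called. The remainders with the smallest adjusted p on the higher side were Cplx2 (0.82, limma adjusted p = 6.72e-05), Cplx1 (limma adjusted p = 0.000139) and Vamp2 (0.21, limma adjusted p = 0.000189), all under the threshold of 1. These p-values leave out the spread of the subtracted share, whose interquartile range over genes was 18.4% to 20.2% in replicate 1. They therefore do not show a day 2 level of these genes beyond that share.

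**Figure D3:**
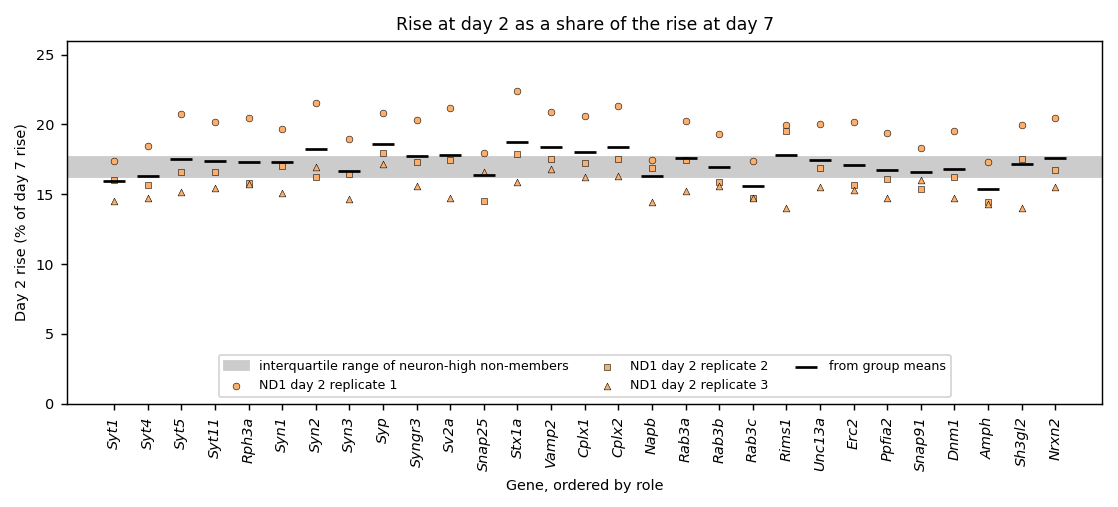
Rise at day 2 as a percentage of the rise at day 7 for the 29 eligible genes, ordered by role; symbols are the 3 ND1 day 2 libraries, black lines the value from group means, and the grey band the interquartile range of 675 neuron-high genes outside the set. Lines lie between 15.4% and 18.7%, and replicate 1 lies highest for each gene.

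The difference between the day 7 and day 2 effects of ND1 was itself tested, first with the day 2 libraries as measured. It was positive and called for 37 of 44 genes and negative and called for Syngr1, where 20.5% and 20.8% of all tested genes were called in these directions; the median was 2.06. The largest differences were those of Syt1 (2.62, SE 0.10), Snap91 (2.62, SE 0.12) and Rab3c (2.61, SE 0.11), with limma adjusted p of 9.73e-12, 9.82e-11 and 4.20e-11. With the day 7 share subtracted, 38 genes were called positive, Sv2b (1.09, SE 0.07) among them, and 1 negative, where 27.4% and 22.6% of 13616 tested genes were. The median was then 3.89, and the largest differences were those of Syt4 (7.19, SE 0.09), Syt1 (6.02, SE 0.10) and Snap91 (5.73, SE 0.30). Within ND1 cells, 37 of 44 genes rose and 1 fell from day 2 to day 7, where 22.6% and 21.1% of all tested genes did (median log2 change of the 44, 2.14). With the share subtracted, 38 rose and 1 fell, where 28.6% and 23.1% of all tested genes did, and the median was 3.86. The comparisons share libraries and are not independent.

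The effect of time in culture was compared in control microglia, where most of these genes were near 0. Means under 1 FPKM were found for 32 of the 44 genes in control day 2 and 28 in control day 7. A gene that stays under 1 FPKM cannot reach a log2(FPKM + 1) change of 1. With the control groups alone, 15 of the 44 passed the filter for testing. From day 2 to day 7, limma called 0 of 44 in either direction, where 3.9% of all tested genes rose and 3.79% fell. At an unadjusted limma p under 0.05, 11 were higher and 9 lower, where 35% and 33.4% of all tested genes were. The largest changes were log2 0.76 for Syt11 (SE 0.07, limma adjusted p = 4.35e-07), from 3.88 ± 0.187 to 7.28 ± 0.772 FPKM, and 0.74 for Bin1 (SE 0.04, limma adjusted p = 4.13e-09), from 30.1 ± 0.388 to 51.1 ± 1.11 FPKM. With a pseudocount of 0.1 FPKM, Syn2 and Sv2a were called higher, as were 1115 of all 13599 tested genes.

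ND1 cells at day 7 had lower levels of most of these genes than cultured neurons. Of 44 genes, 16 were called lower and 0 higher, where 6.24% of all tested genes were lower and 7.29% higher; at an unadjusted p under 0.05, 38 were lower and 1 higher, where 34.3% and 42.4% of all tested genes were. The median log2 change was -0.79 for the 44 and 0.06 for all tested genes. All ND1 day 7 libraries lay below all neuron libraries for 39 of the 44 genes (34.7% of all tested genes), above them for Syn3 and Bsn (43.4% of all tested genes), and overlapped them for Syt4, Cplx2 and Erc2.

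As a percentage of the neuron level, the median over the 44 genes was 56.2%. Lowest were Sv2c at 9.52%, Sv2b at 15.8%, Syp at 28.3%, Syn2 at 30.4% and Snap25 at 31.8%, and highest were Cplx2 at 99.7%, Syt4 at 106%, Bsn at 109% and Syn3 at 149%. Paralogs fell at different places in this order. Syn3 (19.2, 19.6 and 19.8 FPKM in ND1 day 7, 14.4, 12.9 and 12.1 in neurons; log2 change 0.54, SE 0.07, limma adjusted p = 1.40e-05) exceeded its neuron level, while Syn2 (12.4, 12.3 and 12.4 against 41.6, 40.6 and 39.8 FPKM; -1.64, SE 0.07, limma adjusted p = 1.41e-10) was far below it. Cplx2 stood at the neuron level (71.6 ± 0.894 against 71.8 ± 2.11 FPKM; log2 change -0.0046, SE 0.08) and Cplx1 below it (91.9 ± 1.69 against 234 ± 9.05 FPKM; -1.34, SE 0.11, limma adjusted p = 9.62e-08). Sv2a reached 55.7% of its neuron level, against the low shares of Sv2b and Sv2c.

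By role, 5 of 8 fusion genes and 5 of 9 vesicle membrane and synapsin genes were called lower than in neurons, as were 3 of 11 Rab3 and active zone genes, 2 of 6 calcium sensors, 1 of 6 endocytic genes (Dnm1) and 0 of the glutamate transporters and neurexins. The median share of the neuron level was 40.9% for fusion machinery, 45.4% for vesicle membrane and synapsins, 59.9% for endocytosis, 64.6% for Rab3 and active zone and 69.5% for calcium sensors. Over the 40 genes whose neuron mean was at least 1 FPKM and 2 times that of control day 7 the median was 54.8%, and over 4302 other genes passing the same criteria it was 80.8%. The sum of neuronal markers given above was higher in ND1 day 7 than in neurons, whereas 6 neuroendocrine markers, several of them dense-core vesicle proteins, summed to 84.6 to 86.2 FPKM in ND1 day 7 and 492 to 518 in neurons. The neuroendocrine markers did not move as a set: of the 4 tested, 2 were called lower than in neurons, 1 higher and 1 not called.

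**Figure D4:**
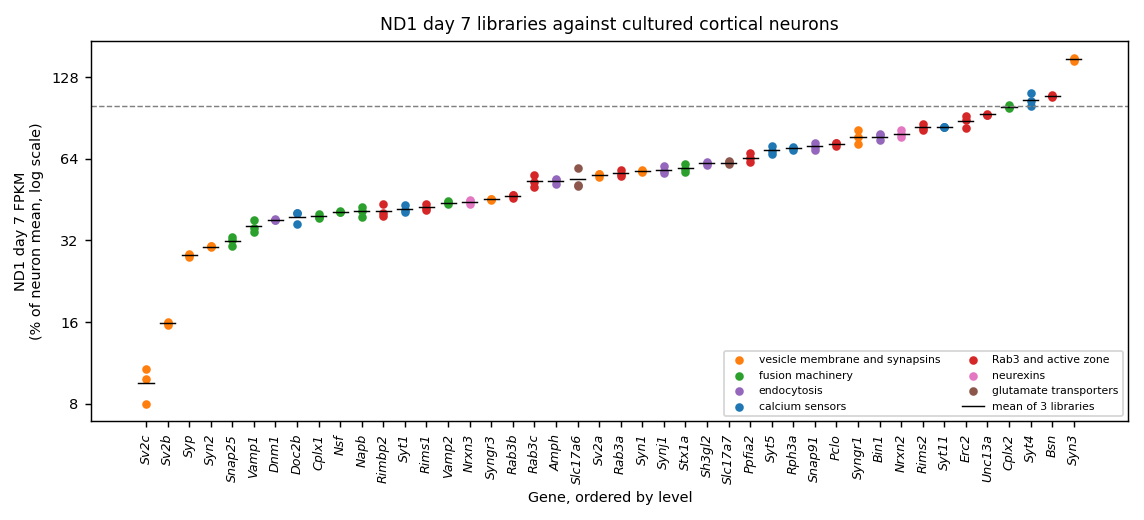
ND1 day 7 level of each gene as a percentage of the neuron mean, on a log axis, ordered from low to high; points are the 3 ND1 day 7 libraries coloured by role and black lines their mean, and the dashed line marks 100%. Sv2c (9.52%) and Sv2b (15.8%) are lowest and Syn3 (149%) highest.

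Other neuronal presynaptic genes outside the set were also lower than in neurons in 13 of 35 tested cases and higher in 0. The largest gaps were those of the synaptotagmin gene Syt13 (1.21 ± 0.101 against 11.7 ± 0.437 FPKM; log2 change -2.52, SE 0.05), the vesicle priming gene Cadps2 (-2.34, SE 0.05), the synuclein gene Sncb (-2.23, SE 0.08) and Slc32a1, the vesicular GABA transporter (9.39 ± 0.408 against 45.4 ± 3.02 FPKM; -2.16, SE 0.07). Of the 33 broadly used relatives tested, 4 were called higher in ND1 day 7 than in neurons (Vamp8, Syngr2, Bin2 and Snap23), 1 lower (Rab27b) and 28 not called, near the 7.29% and 6.24% of all tested genes called in these directions.

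DNA methylation at the start sites of these genes was low already in control microglia. The mean methylated fraction of CpGs within 1000 bases of a start site was taken for 45 windows of 34 of the 44 genes with at least 5 CpGs in both libraries. The median window was at 10.2% in the control and 9.90% in the ND1 library, against medians of 32.9% and 33.2% over windows of all genes. Windows of these genes held more CpGs, with a median of 64 against 38. Genome-wide CpG means were 70.2% and 70.3%. In control, 22 of the 45 windows (48.9%) were under 10% and 5 were over 50%, where 33.7% and 44.7% of 30576 windows of all genes were. The coverage behind each value is unknown and each group has 1 library, so no interval or test is given.

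Genes near 0 FPKM in control microglia included ones with nearly unmethylated starts. The Pclo window, whose CG-rich sequence is given above, was at 3.81% in control and 3.36% in ND1, that of Unc13a at 5.12% and 4.82%, the main Syt1 start at 4.66% and 4.61% and that of Snap91 at 6.12% and 5.85%. These values lay beside that of Syngr1, the most highly expressed of the 44 in control cells, at 5.26% and 6.57%. The upstream Syn2 start, with its 21 CG dinucleotides, was at 10.7% and 10.6%, while the downstream start, with 5, was at 87.7% and 90.2%. Nrxn3 likewise had starts at 84.8%, 53.1% and 6.32% in control.

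No window of these genes differed by 20 percentage points or more between the libraries, where 0.0229% of all windows were higher in ND1 by that amount and 0.036% lower. The differences (ND1 minus control) had a median of -0.08 points and ran from -10.7 to 5.14 points. The lowest was that of the downstream Syt1 start, at 68.7% over 27 CpGs in control and 58.0% over 20 CpGs in ND1; over the 18 CpGs listed in both libraries it was 57.6% and 56.7%, a difference of -0.82 points. Syn1 was at 22.9% in control and 17.6% in ND1, and at 22.5% and 17.6% over the CpGs listed in both. Rab3a, the best expressed of the set in ND1 day 7, had starts at 13.8% and 21.3% in control and 13.8% and 20.8% in ND1.

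**Figure D5:**
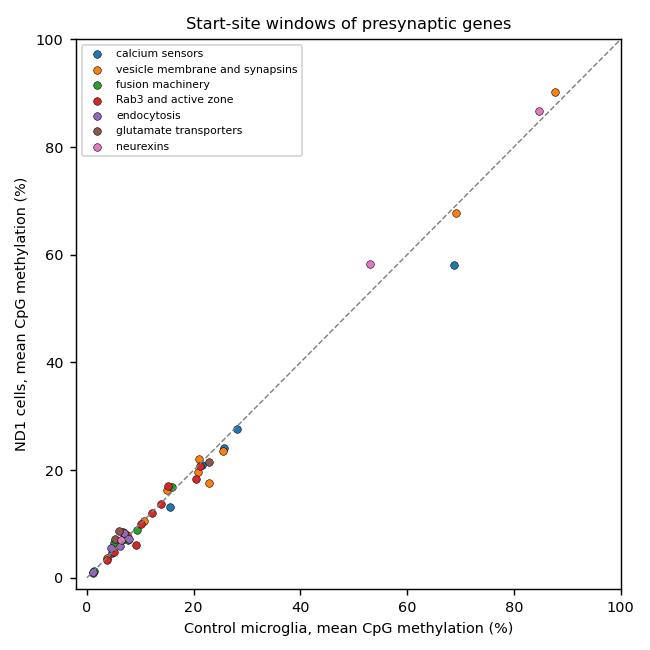
Mean CpG methylation (%) within 1000 bases of each start site in the ND1 library against the control library for 45 windows of 34 genes, coloured by role; the dashed line marks equal values. Points lie along the line, most of them at its lower end, and the point farthest below it is the downstream Syt1 start (68.7% and 58.0%).

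Short motifs were counted on both strands of the 300-base windows. The E-box CAGATG, a NeuroD-type motif, was in 6 of 46 windows (13.0%) and in 17.2% of all 32851 windows, and the E-box CAGCTG was in 12 (26.1%) and in 16.3%. CAGCACC and GGACAG within 25 bases on the same strand, parts of the REST element, were in 1 window (2.17%), that of Unc13a shown above, and in 37 of all windows (0.113%). These are matches of letters in a short window and not measured binding.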

How the data were processed

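RNA was measured in 15 libraries and CpG methylation in 2 libraries, and 10 immunoprecipitation samples were not used here. The authors made the FPKM tables with TopHat, Bowtie2, Cuffdiff and Cufflinks on mm10, per the submitters' processing notes, which give no versions. The bisulfite tables deposited by the authors hold a methylated fraction per CpG with no coverage, from software not given in the sources used here. Read depth is not given in the RNA tables; the worth of 1 read, from the spacing of low values, was 0.730 to 1.12 relative to control day 2 replicate 1. Replicates correlated at 0.975 to 0.986 across genes, and 4 entries with a duplicated symbol were left out.

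The 13599 genes that reached 1 FPKM in 3 or more libraries were fitted as log2(FPKM + 1) with limma 3.58.1 in R 4.3.3, with 5 group means, no replicate block, a trended prior and Benjamini-Hochberg adjustment over all tested genes in each of 7 comparisons. The call rule was tested on simulated data. Day 2 was refitted after subtracting from each ND1 day 2 library its share of the mean ND1 day 7 profile, rescaling the rest and setting values below 0 to 0. Alternatives were a pseudocount of 0.1, no filter or one at 5 FPKM, quantile and median-of-ratios scaling, a replicate block, only the groups compared, each library left out, and other methylation windows and CpG minimums. Summaries used Python 3.11.15, pandas 2.3.3 and NumPy 2.4.6, and figures matplotlib 3.10.9. All 44 genes, the relatives in pairs and, from other lists, at most 4 called genes per direction with the largest changes are named; some results are not reported here. The 44 genes, the other lists and the tests were chosen with earlier results of these data known. Bisulfite positions were matched to RefSeq windows of GRCm38.p6 (mm10), and 21561 of 21561 listed positions in the chromosome 1 windows fell on the C of a CG; windows were matched by symbol for 34 of the 44 genes, and not for Vamp2, Snap25, Syt5, Rims2, Bin1, Syn3, Nrxn2, Syngr3, Doc2b and Syt4.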

Additional observations from a re-analysis of the deposited data

Results flagged for a closer look

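The effect of ND1 on 38 of the 44 genes differed between day 7 and day 2 in the test of that difference (limma, called at an adjusted p under 0.05 and a log2 difference of at least 1), with every adjusted p at or below 2.08e-07. Such calls were common: 20.5% of all tested genes were called positive and 20.8% negative. The log2 differences (day 7 effect minus day 2 effect) of the calcium sensors were 2.62 for Syt1, 2.43 for Syt4, 2.22 for Syt5, 1.40 for Syt11, 1.23 for Doc2b and 2.18 for Rph3a. Those of vesicle membrane proteins and synapsins were 2.05 for Syn1, 1.50 for Syn2, 2.09 for Syn3, 1.94 for Syp, 2.28 for Syngr3 and 1.68 for Sv2a, and Syngr1 alone went the other way at -2.01.

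For the fusion machinery the differences were 2.23 for Snap25, 2.41 for Stx1a, 1.65 for Vamp2, 2.11 for Cplx1, 2.00 for Cplx2 and 2.38 for Napb. For Rab3 and the active zone they were 2.23 for Rab3a, 2.22 for Rab3b, 2.61 for Rab3c, 2.17 for Rims1, 1.54 for Rims2, 1.39 for Rimbp2, 2.27 for Unc13a, 1.60 for Bsn, 1.90 for Pclo, 2.19 for Erc2 and 2.38 for Ppfia2. The endocytic genes gave 2.62 for Snap91, 2.09 for Dnm1, 2.25 for Amph and 2.35 for Sh3gl2, the glutamate transporters 1.88 for Slc17a6 and 1.45 for Slc17a7, and the neurexins 2.07 for Nrxn2 and 1.57 for Nrxn3. The remaining 6 genes, Sv2b, Sv2c, Vamp1, Nsf, Bin1 and Synj1, did not pass the rule. These values use the day 2 libraries as measured. With the day 7 share subtracted from them the differences were 7.19 for Syt4, 6.02 for Syt1 and 5.56 for Syt5, the median of the 44 was 3.89 in place of 2.06, and Sv2b also passed (1.09). Of all tested genes, 27.4% were then called positive and 22.6% negative.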

How the results depend on the processing

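With the ND1 day 7 share subtracted from the ND1 day 2 libraries, the count of genes higher at day 2 went from 31 to 0, and 15 log2 changes turned below 0, 12 of them of genes called before: Syt1 -0.36, Syt4 -0.30, Syt11 -0.13, Syn3 -0.12, Snap25 -0.40, Napb -0.085, Rab3c -0.44, Pclo -0.027, Ppfia2 -0.087, Snap91 -0.34, Dnm1 -0.16 and Amph -0.65. The other 3 were those of Bsn (-0.14), Rimbp2 (-0.017) and Nrxn3 (-0.041). Over all tested genes, those called higher at day 2 went from 1237 of 13599 to 99 of 13616. With a pseudocount of 0.1 FPKM, 2 genes (Syn2 and Sv2a) were higher in control day 7 than day 2 where none was. Over all 13599 tested genes, 1115 were then higher in place of 531. The same setting gave 37 genes higher in ND1 at day 2 in place of 31, with a median log2 change of 3.07. Over all 13599 tested genes it gave 2367 higher at day 2 in place of 1237. At day 7 it gave 39 in place of 38, with Sv2c added, where 4170 of all tested genes were higher in place of 3497. The median control methylation of 10.2% was 4.26% within 500 bases of the start and 3.03% as a median over CpGs; the cause of these shifts was not tested. With 1 library left out at a time, the day 2 and day 7 counts stayed at 31 and 38 higher, neurons against control gave 39 to 40 higher, ND1 day 7 against neurons 15 to 16 lower, the day 2 share 15.9% to 18.4% and the share of the neuron level 55.1% to 57.2%. Sv2c drops out of the test without any 1 neuron library, and Nrxn3 is called lower than in neurons (log2 change -1.06) without neuron replicate 3. Nrxn3 is also called lower with a pseudocount of 0.1 FPKM (-1.14) and with quantile normalization (-1.18), and Vamp1 with that pseudocount (-1.34). Replicate numbers did not pair libraries (r over 0.1 in 2 of 30 pairs, range -0.226 to 0.161); with a replicate block, 31 and 38 genes were higher at day 2 and day 7 and 0 of 308 values changed their call. In all, 6782 of 6837 recomputed values kept their call or lack of one, 19 passed the rule anew and 36 no longer passed it, and 44 had the other sign. Many of them could change little. Of the 6837, 4599 came from leaving out 1 library, often 1 outside the comparison, and the 308 with a replicate block could change only in their spread. The RNA tables give no counts and the bisulfite tables no coverage, so the precision of low FPKM values and of single CpGs is unknown, and each bisulfite group has 1 library.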

Other observations

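Methylation over whole gene bodies, added after the start-site values were seen, also stayed close between the bisulfite libraries. Over 41 of the 44 genes the median was 65.5% in control and 65.9% in ND1, and the differences (ND1 minus control) ran from -1.38 to 3.09 percentage points. Over 16305 protein-coding genes of at least 5000 bases and 20 CpGs the median was 69.1% in each library, and the differences between the 5th and 95th percentiles ran from -2.25 to 2.03 points.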
